A study of Mus musculus with 6 samples.

Results

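The Tudor domain genes described here are Tdrd1, Tdrd3, Tdrd5, Tdrd6, Tdrd7, Tdrd9, Tdrd12 and Rnf17, which encode Tudor domain proteins and are grouped as components of the germ granules of male germ cells. They were taken by gene name from a table of read counts, in which they are 8 of 26743 genes. RNA-seq was performed on total RNA of whole testes from 3 wild-type (WT) and 3 Trf2-/- male mice, all taken at postnatal day 21. The Trf2-/- mice lack TBP-related factor 2, a relative of the TATA-binding protein that is listed in the table as Tbpl1, and at this age the first wave of spermatogenesis has just produced round spermatids. The samples are whole testes and mix the cell types present at this age, and in the Trf2-/- mice the mutation is present in each cell type. Fewer cells of a type and less RNA per cell therefore cannot be told apart for any gene. The strain of the sequenced animals is not given in the sources used here.

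A Tudor domain is a small fold that binds methylated arginine or lysine on other proteins. In male germ cells the PIWI proteins carry methylated arginines, and multi-Tudor proteins that bind them help to assemble perinuclear granules, first the intermitochondrial cement of spermatocytes and then the chromatoid body of round spermatids. These granules hold the machinery that makes piRNAs, the small RNAs that silence transposons, and they gather other RNAs as well. Tdrd1, Tdrd5, Tdrd9 and Tdrd12 are known for piRNA production and transposon silencing, Tdrd6 and Tdrd7 for building the chromatoid body, and Rnf17, a RING finger protein with several Tudor domains also called Tdrd4, for spermatid development. Tdrd3 stands apart as a widely expressed coactivator and partner of the topoisomerase Top3b, and it is not known as a germ granule protein.

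In Trf2-/- testis 3 of the 8 genes were lower past the test, 0 were higher and 5 did not pass. Tdrd6 fell by far the most, to at most 51.2% of its lowest WT value in every mutant mouse, and was the only one of the 8 to change by 2-fold. Tdrd7, the other gene known for chromatoid body structure, fell by 29.2%, and Tdrd12, a helicase of the piRNA pathway, by 11.2%. The test is edgeR's quasi-likelihood test on the counts of the 16924 genes that passed a filter on low counts, with p-values adjusted over all of them, and a gene was called when its adjusted p was under 0.05. By this rule 20.2% of all tested genes fell and 11.2% rose in Trf2-/- testis. The share of the 8 genes called lower is therefore read against a high background. With a fold change of at least 2 as well, 4.3% of tested genes were lower and 0.609% higher. All 8 genes passed the filter, and their median log2 fold change was -0.12, against 0.04 over all tested genes. The 8 are abundant transcripts, and among the 3167 tested genes with at least the WT level of the scarcest of them, 40.3% were lower and 11.3% higher, with a median log2 fold change of -0.08.

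Reads counted on genes ranged from 21582123 to 29859347 in the WT mice and from 15187062 to 24530489 in the Trf2-/- mice. The inactivated gene, Tbpl1, had a mean level of 295 ± 12.5 CPM (read counts scaled to a common library size with TMM factors, SD, n = 3) in WT and 61.0 ± 4.60 CPM (SD, n = 3) in Trf2-/- testis, so the libraries matched their labels. Scaling sets where a fold change of 0 lies. With library size alone in place of TMM factors, 2691 genes were lower and 4267 higher, against 3423 and 1889 in the test used here, and the median log2 fold change of all genes was 0.13.

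RefSeq windows of 300 bases (build GRCm38.p6, from 250 bases before to 50 after an annotated start) were found for 6 of the 8 genes, in 11 windows. Tdrd6 and Rnf17 had no entry. Tdrd7 and Tdrd12 are shown because they are the called genes with an entry, and the first 2 starts of Tdrd7 because they differ in composition. Capitals mark TATAAA, the core of the TATA box, and GGGCGG, the GC box, on either strand.
Tdrd7, chr4:45965085-45965384, plus strand: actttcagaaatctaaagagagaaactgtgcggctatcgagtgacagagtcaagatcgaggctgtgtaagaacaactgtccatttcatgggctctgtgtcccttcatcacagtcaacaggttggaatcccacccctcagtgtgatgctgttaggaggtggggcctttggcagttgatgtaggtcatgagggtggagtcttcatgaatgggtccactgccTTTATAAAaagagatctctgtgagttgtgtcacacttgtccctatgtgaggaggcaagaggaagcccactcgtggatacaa
Tdrd7, chr4:45972047-45972346, plus strand: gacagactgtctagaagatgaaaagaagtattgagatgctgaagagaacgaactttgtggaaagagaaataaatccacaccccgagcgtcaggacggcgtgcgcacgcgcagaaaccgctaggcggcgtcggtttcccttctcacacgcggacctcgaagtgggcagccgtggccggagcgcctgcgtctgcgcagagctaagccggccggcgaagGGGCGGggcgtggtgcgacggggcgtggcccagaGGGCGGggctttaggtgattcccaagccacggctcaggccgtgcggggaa
Tdrd12, chr7:35537666-35537965, minus strand: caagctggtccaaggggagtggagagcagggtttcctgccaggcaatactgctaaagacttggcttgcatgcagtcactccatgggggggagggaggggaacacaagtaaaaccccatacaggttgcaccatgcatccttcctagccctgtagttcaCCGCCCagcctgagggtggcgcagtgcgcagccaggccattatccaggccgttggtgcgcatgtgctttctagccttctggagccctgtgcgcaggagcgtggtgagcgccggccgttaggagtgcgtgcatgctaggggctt

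The upstream start of Tdrd7 holds TATAAA on both strands in an overlapping pair that begins 31 bases before the start, and its GC content is 48.3%. The second window of Tdrd7 has no TATAAA but has 2 GC boxes, and its GC content is 63.0%. The Tdrd12 window shown has 1 GC box, and the other window of Tdrd12 overlaps it and holds the same box. Over all 32851 RefSeq windows, TATAAA was found in 13.6% and GGGCGG in 35.7%, on either strand. Among the 11 windows of the 6 genes, 2 held TATAAA, in Tdrd7 and in the third start of Tdrd1, where it lies after the start. GGGCGG was in 5 windows, all of Tdrd3, Tdrd7 or Tdrd12. Windows of the same gene can overlap, so a site can be counted more than once. The 5-base core of the cyclic AMP response element, TGACG, was in 3 windows (20.8% of all windows), and the full element TGACGTCA, which contains that core, was in 0 (1.79% of all). CCAAT was in 1 (37.4% of all), and the MYB core AACNG, with N any base, in 10 (80.3% of all). Which start was used in these testes was not measured, and a match of letters is not a binding site.

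Tdrd6 encodes a large protein of the chromatoid body with many Tudor domains. The gene (ENSMUSG00000040140) spans 43752284 to 43767248 on chromosome 17, minus strand, of build NCBIM37 (mm9), to which all gene positions below refer. Its longest annotated transcript has only 5 exons, and 1 exon of 6193 bases makes up 87.7% of it. The WT mice had 32241, 27311 and 21976 counts on Tdrd6, and the Trf2-/- mice 11640, 12483 and 5857. On the CPM scale the WT mice stood at 1123, 1046 and 1054, and the Trf2-/- mice at 462, 535 and 370. The 2 groups did not overlap, and the highest mutant value was 51.2% of the lowest WT value. The fitted log2 fold change was -1.24 (SE 0.11, edgeR adjusted p = 0.000329), a level 2.36-fold lower with a 95% interval from 1.97 to 2.81. Of the tested genes, 2.94% had a lower log2 fold change than Tdrd6. Tdrd6 was an abundant transcript, since 99.8% of tested genes had a lower mean CPM in WT testis.

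The mutant mice differed more among themselves in Tdrd6 than the WT mice did, with a coefficient of variation of 18.1% against 3.96%. Trf2-/- mouse 3 had the lowest level, also the lowest total count of the 6 libraries, and mouse 2 the highest. Leaving out single mice gave log2 fold changes of Tdrd6 between -1.38 (without Trf2-/- mouse 2) and -1.10 (without Trf2-/- mouse 3), with adjusted p-values of at most 0.00336 (edgeR). The nearest tested genes on either side, Pla2g7 at 3134 bases and Slc25a27 at 11601 bases, had log2 fold changes of -0.02 (adjusted p = 0.857) and 0.17 (adjusted p = 0.310), and no other annotated gene overlaps Tdrd6.

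Tdrd7 encodes a Tudor protein of the chromatoid body that is also needed in the lens of the eye. It lies on the plus strand of chromosome 4 from 45978206 to 46047633 (ENSMUSG00000035517), and its longest transcript has 17 exons. The WT mice had 9719, 8290 and 6618 counts, or 339, 318 and 318 CPM. The Trf2-/- mice had 6003, 5656 and 3291 counts, or 238, 243 and 208 CPM. Every mutant value lay below every WT value, and the order of the mutant mice was that of Tdrd6, with mouse 3 lowest and mouse 2 highest. The log2 fold change was -0.50 (SE 0.06, edgeR adjusted p = 0.000864), and 12.2% of tested genes had a lower one. Of its nearest tested genes, E230008N13Rik at 14567 bases was also lower (log2 fold change -0.57, edgeR adjusted p = 0.00429). Tmod1, on the other side at 4174 bases, did not pass (0.42, adjusted p = 0.185).

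**Figure D1:**
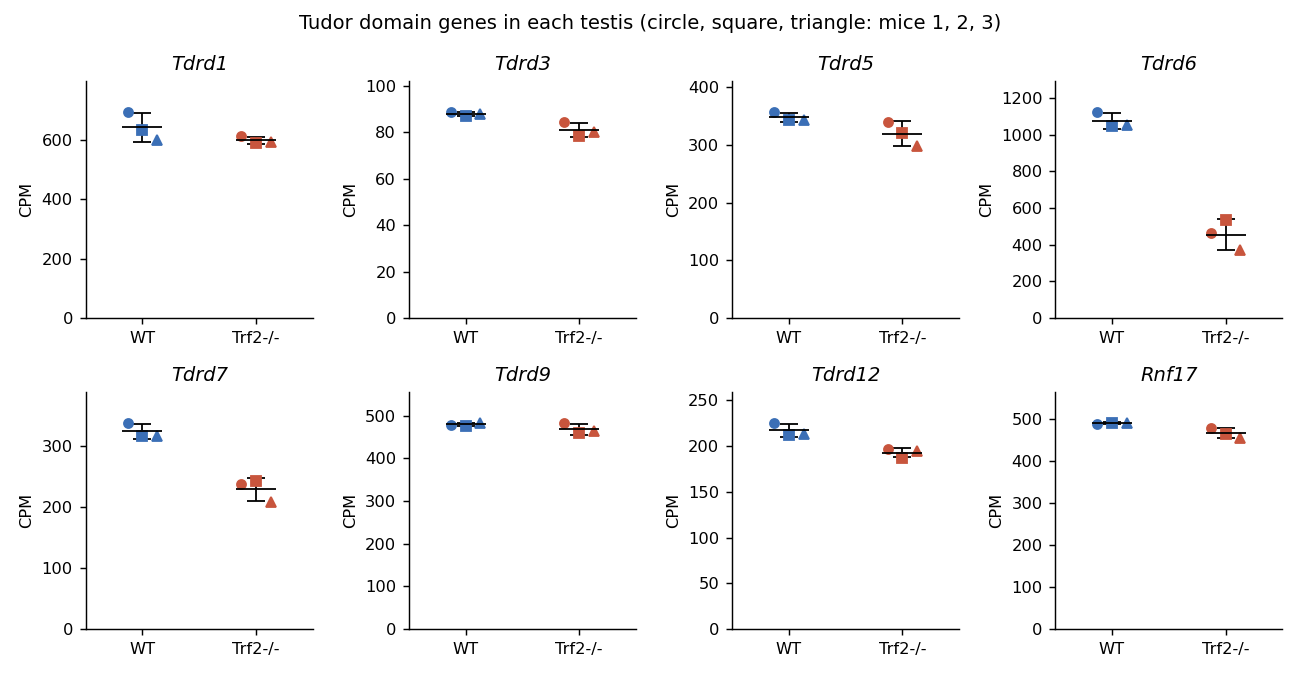
Level of each of the 8 genes in CPM (vertical axes, linear and starting at 0) in the WT (blue) and Trf2-/- (red) mice, where circles, squares and triangles are mice 1, 2 and 3 and the bars are the mean and SD of 3 mice. Tdrd6 falls from 1075 to 456 CPM and Tdrd7 from 325 to 230 CPM, while the other genes change little.

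Tdrd12 encodes a putative RNA helicase with Tudor domains that acts in secondary piRNA production. It lies on the minus strand of chromosome 7 from 36254117 to 36322764 (ENSMUSG00000030491). Its counts were 6478, 5550 and 4454 in WT and 4964, 4375 and 3075 in Trf2-/- mice. These correspond to 226, 213 and 214 CPM in WT and to 197, 188 and 194 CPM in Trf2-/- testis, so that the groups did not overlap but lay close together. The log2 fold change was -0.17 (SE 0.05, edgeR adjusted p = 0.0201). This call was lost without WT mouse 1 (adjusted p = 0.0787), WT mouse 2 (0.0504) or Trf2-/- mouse 2 (0.0503), and with scaling by library size alone, where the log2 fold change was -0.08 (adjusted p = 0.194). Over all 12 alternatives the adjusted p of Tdrd12 ran from 0.0129 to 0.194. Of its nearest tested genes, Ccdc123 at 30409 bases was also lower (log2 fold change -0.28, edgeR adjusted p = 0.00283). Nudt19, on the other side at 9440 bases, did not pass (0.12, adjusted p = 0.205).

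The other genes of piRNA production did not pass the test. Tdrd1, a partner of the PIWI protein Mili and a founding component of the intermitochondrial cement, lies on chromosome 19 from 56900699 to 56944502. It stood at 694, 633 and 599 CPM in WT and at 613, 591 and 591 CPM in Trf2-/- mice. The groups overlapped, WT mouse 1 being the highest, and the log2 fold change of -0.10 had a 95% interval from -0.23 to 0.03 (edgeR adjusted p = 0.211). Tdrd9, a helicase that works with the PIWI protein Miwi2, lies on chromosome 12 from 113209770 to 113307065. It had 478, 476 and 483 CPM in WT and 483, 458 and 463 CPM in Trf2-/- mice, with overlapping groups. Its log2 fold change of -0.03 had an interval from -0.13 to 0.06 (edgeR adjusted p = 0.559), and became 0.06 with scaling by library size alone. BC048943, a gene on the opposite strand, overlaps 1429 bases of the Tdrd9 span.

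Tdrd5, needed for transposon silencing and for round spermatids to mature, lies on chromosome 1 from 158185426 to 158233795. Both the table and the reference annotation list this gene (ENSMUSG00000060985) as a lincRNA, with 6 transcripts and 0 of them coding. Its levels were 357, 343 and 344 CPM in WT and 341, 322 and 298 CPM in Trf2-/- mice. The groups did not overlap, though the highest mutant value was 99.2% of the lowest WT value, and mouse 3 was again the lowest. The log2 fold change was -0.12 with an interval from -0.25 to 0.00353 (edgeR adjusted p = 0.124). Rnf17, on chromosome 14 from 57021534 to 57143869, was very even among the WT mice, at 488, 491 and 490 CPM. The Trf2-/- mice had 478, 465 and 455 CPM, all below the WT mice, and the log2 fold change was -0.07 with an interval from -0.16 to 0.02 (edgeR adjusted p = 0.208). It turned to 0.02 with scaling by library size alone. A U6 gene of 103 bases lies within Rnf17 on the same strand.

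Tdrd3, on chromosome 14 from 87816390 to 87945315, was the least abundant of the 8. It had 88.8, 87.3 and 87.9 CPM in WT and 84.4, 78.5 and 80.3 CPM in Trf2-/- mice, without overlap. Its log2 fold change was -0.12 (SE 0.05, unadjusted p = 0.0370, adjusted p = 0.0925 with edgeR), so it did not pass. Thus 6 of the 8 genes had every mutant value below every WT value, which was so for 26.8% of all tested genes. The 3 of these 6 that did not pass the test were Tdrd3, Tdrd5 and Rnf17. Their highest mutant values were 96.7%, 99.2% and 97.9% of their lowest WT values. With library size alone their log2 fold changes were -0.02, -0.03 and 0.02, so their separation depends on the scaling. The reverse, every mutant value above every WT value, was found for 0 of the 8 and for 22.3% of tested genes. The fitted log2 fold changes of all 8 genes were below 0, except that those of Tdrd9 and Rnf17 were above 0 with library size scaling.

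**Figure D2:**
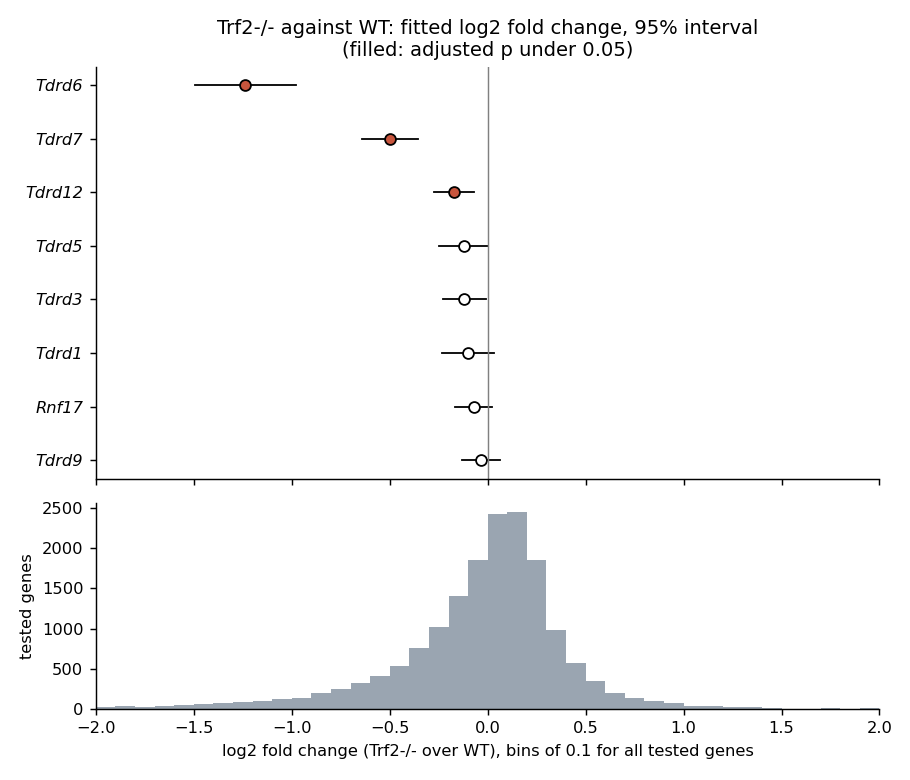
Fitted log2 fold change of Trf2-/- over WT (horizontal axis) for the 8 genes with 95% intervals (upper panel, filled where the adjusted p is under 0.05) and the number of all tested genes in bins of 0.1 (lower panel, shown from -2 to 2). Tdrd6 at -1.24 and Tdrd7 at -0.50 stand to the left of the other 6 genes, which lie between -0.17 and -0.03.

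Levels of different genes were compared per length, as CPM divided by the gene length in kilobases that the table gives. In WT testis Tdrd6 had the highest level, 152 ± 6.02 CPM per kb (SD, n = 3), followed by Tdrd1 at 118 ± 8.87, Tdrd9 at 99.6 ± 0.784, Rnf17 at 94.9 ± 0.329, Tdrd5 at 92.6 (at least 91.3 in each mouse), Tdrd7 at 80.6 ± 3.03, Tdrd12 at 53.3 ± 1.79 and Tdrd3 at 15.1 ± 0.132 CPM per kb. The values of neighbours in this order did not overlap among the WT mice, except for Rnf17 and Tdrd5. In Trf2-/- testis Tdrd6 stood in the fifth place, at 64.5 ± 11.7 CPM per kb (SD, n = 3), and its values overlapped those of Tdrd7, the next gene, at 57.0 ± 4.67. The order of the other 7 genes among themselves was the same in both genotypes, with Rnf17 and Tdrd5 again overlapping.

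**Figure D3:**
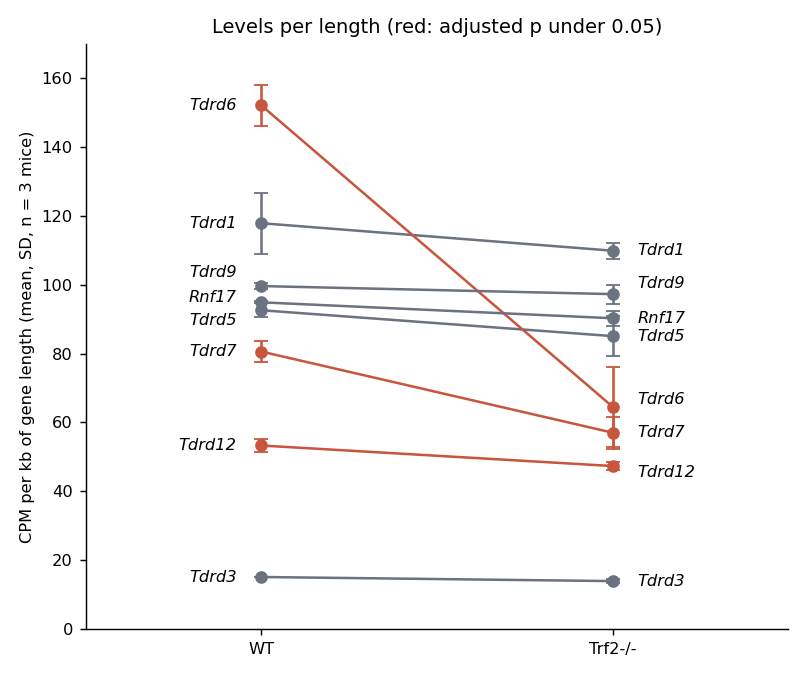
Mean level per length (CPM per kb, linear axis from 0) of the 8 genes in WT and Trf2-/- testis, with the SD of 3 mice and red lines where the adjusted p is under 0.05. Tdrd6 leads in WT at 152 CPM per kb and lies beside Tdrd7 in Trf2-/- testis at 64.5, while the other lines do not cross each other.

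The ratio between 2 genes within a mouse does not depend on the scaling of its library. Tdrd6 per length was 1.25, 1.27 and 1.36 times Tdrd1 in the WT mice and 0.581, 0.698 and 0.483 times Tdrd1 in the Trf2-/- mice. Tdrd6 was 1.89, 1.88 and 1.89 times Tdrd7 in WT and 1.11, 1.26 and 1.01 times Tdrd7 in Trf2-/- mice, so that Tdrd6 fell more than Tdrd7 in each mutant mouse. Tdrd7 was 0.660, 0.678 and 0.717 times Tdrd1 in WT and 0.526, 0.555 and 0.476 times Tdrd1 in Trf2-/- mice. None of the ratios overlapped between genotypes. With Tdrd6 against Rnf17, 4 ratios were compared, and each gave p = 0.1 in the two-sided exact permutation test, also after Benjamini-Hochberg adjustment, which is the smallest p that 3 mice against 3 allow. The ratios rest on the same counts as the fold changes above, so they describe these genes and are no further test of them. The 8 genes together summed to 3663 ± 114 CPM in WT and 2811 ± 132 CPM in Trf2-/- testis (SD, n = 3), and Tdrd6 made up 72.6% of the difference. Without Tdrd6 the sum was 2589 ± 72.0 CPM in WT and 2356 ± 72.9 CPM in Trf2-/- testis (SD, n = 3).

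Beside Tdrd6 and Tdrd7, most markers of round spermatids and of pachytene spermatocytes were lower in Trf2-/- testis. Of 12 round spermatid markers 11 were tested, 9 were lower past the adjusted p, 0 were higher and 2 did not pass, with a median log2 fold change of -1.41. Their summed level ranged from 638 to 664 CPM in WT and from 336 to 481 CPM in Trf2-/- mice, and it was lowest in Trf2-/- mouse 3 and highest in mouse 2, as for both genes. Dkkl1 and Lrrc34, at 403 and 167 CPM in WT, made up most of this sum, and their log2 fold changes of -0.55 and -0.71 were smaller than the median of the list. The acrosomal genes Acrv1 and Spaca7 were scarce, with 24 to 41 counts in the WT mice, at most 3 in each mutant mouse and 0 in mouse 3. Catsper3, Catsper4 and Sun5 were also at 0 in mouse 3, the library with the lowest total count. These 3 genes had only 9 to 43 counts in the WT mice, and Sun5 was not tested. Other markers of the list changed less. Acr had a log2 fold change of -0.85, and Spaca1 and Tsga8, which did not pass, had -0.22 and 0.18. The list of pachytene spermatocyte markers, which holds Piwil1, was lower in 8 of 8 genes past the test. The falls were uneven, with log2 fold changes of -0.25, -0.17 and -0.16 for Piwil1, Hspa2 and Mybl1. Those of Ldhc, Spag6, Adam3, Pgk2 and Ccna1 ran from -0.70 to -1.63. The summed level of the list ranged from 5879 to 6337 CPM in WT. It was 4419, 4655 and 3702 CPM in Trf2-/- mice 1, 2 and 3, the same order as for the round spermatid markers. Sertoli cell markers were higher in 4 of 7 genes and lower in 0, with a summed level from 1427 to 1575 CPM in WT and from 1674 to 1865 CPM in Trf2-/- mice. Macrophage markers were higher in 3 of 6 genes and lower in 0, and summed to 144 to 168 CPM in WT and 162 to 323 CPM in Trf2-/- mice, mouse 1 being the highest. Of all tested genes, 20.2% were lower and 11.2% higher. The part of the marked cell populations in the change of Tdrd6, Tdrd7 and Tdrd12 was not tested.

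**Figure D4:**
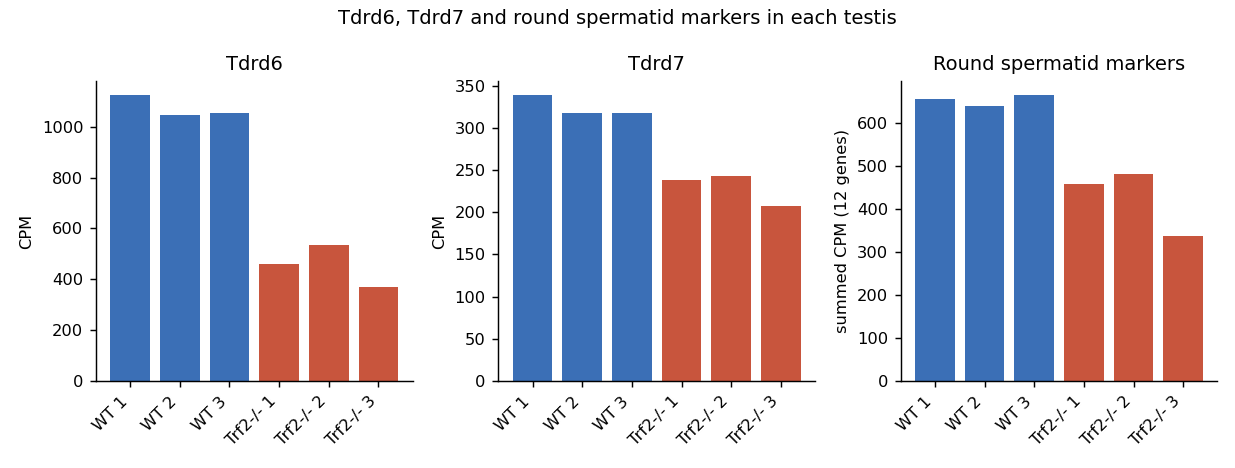
Level of Tdrd6 and Tdrd7 in CPM and the summed CPM of 12 round spermatid markers in each mouse (bars from 0, WT blue, Trf2-/- red). In all 3 panels the mutant bars are below the WT bars, Trf2-/- mouse 3 is the lowest and mouse 2 the highest of the mutants.

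The genes whose levels followed Tdrd6 most closely over the 6 mice, by Pearson correlation of log2 CPM, were Wdr20b (r = 0.9999), Spesp1 (0.9998), Kcmf1 (0.9998), Tcp1 (0.9996) and Brap (0.9995). Spesp1 encodes a protein of the sperm equatorial segment and Tcp1 a subunit of a cytoplasmic chaperonin. Their log2 fold changes were -1.04, -0.76, -0.45, -0.51 and -0.48, each past the adjusted p. Choosing genes by correlation with Tdrd6, which separated the genotypes, already fixed this direction and favored a call. The 6 points share 2 genotypes and their libraries, and 544 tested genes (3.21%) had an r of at least 0.99, so the likeness is a description of these mice.

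None of the tested partners of the Tudor proteins changed by 2-fold. In 5 lists of other Tudor genes, PIWI and piRNA factors, arginine methylation enzymes, chromatoid body components and Tdrd3 partners, 38 further genes were tested, of which 10 were lower, 8 higher and 20 did not pass, beside 20.2% lower and 11.2% higher of all tested genes. The count of higher genes was 15 with library size scaling, 5 without WT mouse 2 and 4 without WT mouse 1, WT mouse 3 or Trf2-/- mouse 1. Over all tested genes the count of higher genes moved too, from 1889 in the test used here to 4267 with library size scaling. It was 780 without WT mouse 2, and 787, 1168 and 1174 without WT mouse 1, WT mouse 3 and Trf2-/- mouse 1. The median log2 fold change of the 38 genes was 0.05.

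None of the other 8 tested Tudor domain genes was lower by the test, with fitted values between 0.04 and 0.39 on the log2 scale. Those that rose were Akap1, a mitochondrial anchor of protein kinase A, from 18.8 ± 0.870 to 24.6 ± 1.72 CPM (log2 fold change 0.39, adjusted p = 0.00602), and Snd1, a Tudor nuclease of RNA granules, from 76.3 ± 4.06 to 93.4 ± 1.72 CPM (0.29, adjusted p = 0.00384, both SD, n = 3 and edgeR). Stk31 and Tdrkh, named after their values were seen as the members of the list known from germ cells, had log2 fold changes of 0.04 and 0.09 and did not pass. With library size scaling Tdrkh passed (log2 fold change 0.19, adjusted p = 0.0452).

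Among 13 PIWI and piRNA pathway partners 4 were lower, 1 higher and 8 did not pass. Pld6, the mitochondrial protein that cuts piRNA precursors, fell from 91.0 ± 5.38 to 69.5 ± 4.43 CPM (SD, n = 3), a log2 fold change of -0.39 (edgeR adjusted p = 0.00261). Mael, a granule protein of the same pathway, and Gtsf1, a small zinc finger protein that assists PIWI proteins, had log2 fold changes of -0.36 (adjusted p = 0.00351) and -0.34 (adjusted p = 0.0139). Piwil1, named after its values were seen, encodes the PIWI protein Miwi of pachytene cells and was lower by the test (log2 fold change -0.25, edgeR adjusted p = 0.00583). Fkbp6, a cochaperone of piRNA loading, was higher (0.21, adjusted p = 0.0455). Of the 3 arginine methylation genes only Prmt5, the methyltransferase itself, passed, with a log2 fold change of 0.17 (adjusted p = 0.0319). With library size scaling its cofactor Wdr77, named after its values were seen, also passed (log2 fold change 0.22, adjusted p = 0.0102).

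**Figure D5:**
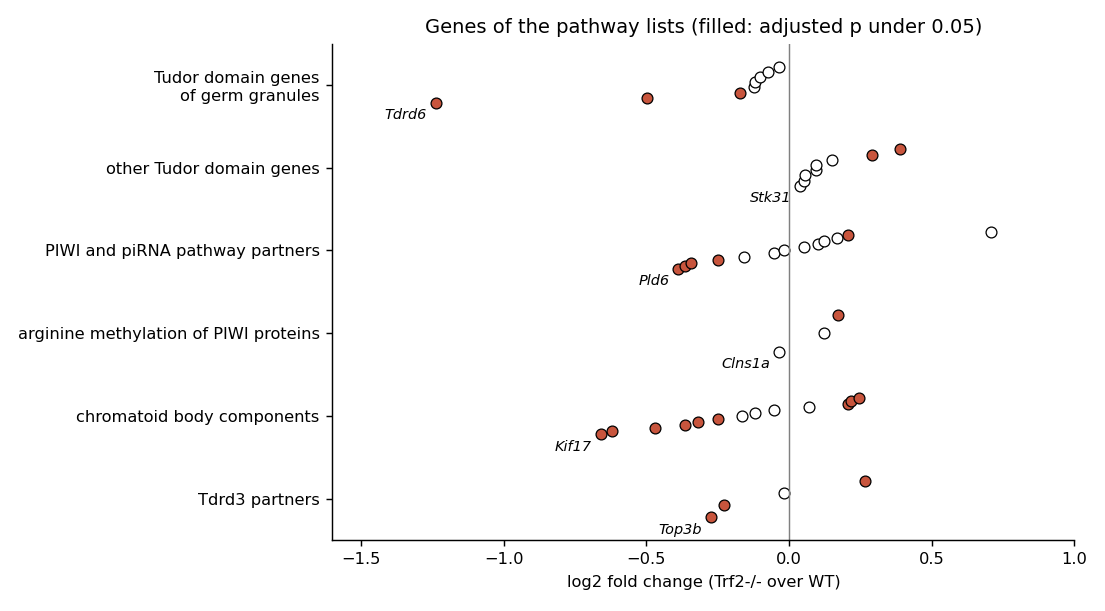
Fitted log2 fold change of Trf2-/- over WT (horizontal axis) for each tested gene of the 8 Tudor domain genes and the 5 pathway lists (rows), filled where the adjusted p is under 0.05, with the lowest gene of each row named. Tdrd6 at -1.24 is lower than every gene of the 5 lists, whose lowest value is -0.66 for Kif17.

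Among 13 chromatoid body components, which include Mael, Piwil1 and Ddx4 of the PIWI list, 6 were lower, 3 higher and 4 did not pass. Ddx25, a spermatid RNA helicase that shuttles to the chromatoid body, fell from 372 ± 9.39 to 241 ± 31.1 CPM (SD, n = 3), a log2 fold change of -0.62 (edgeR adjusted p = 0.00105). Its counts were 10982, 9565 and 7639 in WT and 6468, 6113 and 3254 in Trf2-/- mice. Ybx2, a binding protein of stored germ cell mRNAs, fell likewise (log2 fold change -0.47, edgeR adjusted p = 0.000368), with 524, 505 and 515 CPM in WT and 379, 379 and 357 CPM in Trf2-/- mice. Kif17, a kinesin motor, was scarce, at 5.08 ± 0.344 CPM in WT and 3.27 ± 0.762 CPM in Trf2-/- testis (SD, n = 3, log2 fold change -0.66, edgeR adjusted p = 0.0226). The germ cell RNA-binding proteins Cpeb1 and Dazl and the nuclease Dicer1 were higher, with log2 fold changes of 0.25, 0.22 and 0.21 (adjusted p = 0.0426, 0.00522 and 0.0274). Ddx4, the Vasa helicase that marks these granules and was also named after its values were seen, stood at 718 ± 18.4 CPM in WT and 693 ± 14.1 CPM in Trf2-/- testis (SD, n = 3) and did not pass (log2 fold change -0.05, adjusted p = 0.386, and 0.04 with library size scaling).

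Of the 4 genes listed as Tdrd3 partners 2 were lower, 1 was higher and 1 did not pass. Top3b, the topoisomerase that Tdrd3 binds, changed by -0.27 on the log2 scale (edgeR adjusted p = 0.00249), and Fxr1, a relative of the fragile X protein, another of -0.23 (adjusted p = 0.00671). Fmr1, the fragile X gene, was higher by 0.27 (adjusted p = 0.0102).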

How the data were processed

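Total RNA from testes of 6 mice was depleted of ribosomal RNA, made into strand-specific libraries and sequenced as single-end reads of 50 bases. The authors deposited raw read counts per gene, 1 column per mouse, after alignment to mm9/NCBI37 with Tophat. The submitters' processing notes name TopHat2 2.0.10, Bowtie2 2.1.0, HTSeq 0.5.4p3 and DESeq2 1.0.19. Whether counting used the strand and how reads shared between genes were treated are not given in the sources used here. The deposited table also gives a gene length in bases (used for CPM per kb), and 12 columns of normalized values in all, not used here. Coordinates of all 8 genes were identical in the table and in GENCODE vM1 for NCBIM37, which gave strand, exons and neighbours. Promoter windows came from RefSeq (GRCm38.p6) and no coordinate was carried between builds.

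Columns were assigned to mice by genotype and replicate number. Genes passing filterByExpr (16924, with 99.9% of reads) were tested with edgeR 4.0.16 in R 4.3.3 (TMM, glmQLFit, glmQLFTest, Benjamini-Hochberg adjustment), WT against Trf2-/-. The SE was the log2 fold change divided by the root of its F statistic. Depth was 15187062 to 29859347 counts per mouse. The 3 mice per genotype are, by the study's methods, independent biological replicates, and in no pair of the same genotype did the counts agree within sampling noise (chi-square per degree of freedom of at least 3.32). Alternatives were DESeq2 1.42.0, other scalings and filters, a replicate block, each mouse left out and an adjusted p of 0.01. The edgeR and DESeq2 fits were tested on simulated data. Named were the 8 genes, the inactivated gene, up to 3 called genes per direction and list with the largest change, and the 5 genes most correlated with the member that changed most. The genes and lists were chosen with earlier results of these data known. Listed genes not in the table under any name used (such as Tdrd10 and Tdrd15) were not analysed here. Sgf29, Ago2, Cugbp1 and Adgre1 were listed as other names of Ccdc101, Eif2c2, Celf1 and Emr1, which were tested. The marker lists cover spermatogonia, early meiotic and pachytene spermatocytes, round spermatids, Sertoli and Leydig cells and macrophages.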

Additional observations from a re-analysis of the deposited data

How the results depend on the processing

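The counts of 3 Tudor domain genes lower, 0 higher (also 0 higher with DESeq2, and 0 at an unadjusted p under 0.05) and 1 past 2-fold moved only through Tdrd12, which lost its call in 4 of 12 alternatives and at an adjusted p of 0.01, so that 2 genes were lower there. Tdrd6 and Tdrd7 passed in all 12, with log2 fold changes from -1.38 to -1.10 and from -0.55 to -0.40. With each mouse left out, 2 to 3 genes were lower, 0 higher and 1 past 2-fold. Library size alone turned the log2 fold changes of Tdrd9 to 0.0605 and of Rnf17 to 0.0227, neither past the test (adjusted p = 0.258 and 0.666), while those of the other members stayed below 0 under each alternative. In the 5 pathway lists, library size alone gave 15 genes higher against 8, and an adjusted p of 0.01 gave 11 called against 18 and 3 higher. Over all tested genes, library size alone gave 4267 higher against 1889. Without single mice, 12 to 18 list genes were called, 8 to 11 lower and 4 to 7 higher. Of all tested genes, 2626 to 3332 were then lower and 780 to 1903 higher. The fit with the replicate number as a block gave 3 members lower and 16 list genes called. Same-numbered mice did not deviate together (correlations of -0.10, -0.03 and -0.10), and no mouse correlated best with its own number. With 3 mice per genotype these values cannot exclude that same-numbered mice shared a litter or a processing batch. The causes of these changes were not tested. Each of the 8 genes had at least 1270 counts in each mouse. Counting error was not separated from the spread between mice, which was under 1% of the mean among WT mice for Tdrd3, Tdrd9 and Rnf17.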

Other observations

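Markers of earlier germ cells were also measured beside the Tudor domain genes. By the same test, 20.2% of all tested genes were lower and 11.2% higher. Of 8 spermatogonia markers, 1 was higher past the adjusted p of edgeR (Kit, log2 fold change 0.19, adjusted p = 0.0302), 0 were lower and 7 did not pass. Of 7 early meiotic markers, 3 were higher, 0 were lower and 4 did not pass. The higher ones were the synaptonemal complex genes Sycp1 (0.29, adjusted p = 0.00602) and Sycp3 (0.24, adjusted p = 0.00426) and the meiotic HORMA domain gene Hormad1 (0.17, adjusted p = 0.0274). Sycp2, another synaptonemal complex gene, went the other way without passing (-0.10, adjusted p = 0.0972). It was at 1286 ± 0.526 CPM in WT and 1197 ± 36.5 CPM in Trf2-/- testis (SD, n = 3). The summed level of the 7 markers ranged from 2772 to 2806 CPM in WT and from 2863 to 3034 CPM in Trf2-/- mice. Among 6 Leydig cell markers 1 was higher (Hsd3b1, 0.32, adjusted p = 0.0144), 0 were lower and 5 did not pass. Cyp17a1 and Cyp11a1 had log2 fold changes of -0.31 and -0.05. Some of these markers varied widely within a genotype, such as Star, from 18.2 to 92.1 CPM in WT and from 20.4 to 102 CPM in Trf2-/- mice. The summed level of the Leydig cell markers overlapped, from 181 to 360 CPM in WT and from 185 to 326 CPM in Trf2-/- mice. Kit, Sycp1, Sycp3, Hormad1 and Hsd3b1 were named by the rule of largest change used for the pathway lists, applied to the marker lists after their values were seen. The other genes here were also named after their values were seen.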
